A study of Daphnia magna with 24 samples.

Results

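Described here are 22 of 7680 array features that read below the laboratory control in every exposure of Daphnia magna to 4 field waters from Walker Mine, a copper mine in California. Daphnia magna, a small freshwater crustacean, is a standard animal of water testing. Genetically homogeneous females, 14 to 16 days old, spent 24 h at 23.5 °C in water from upstream of the mine, downstream of its portal, downstream of its tailings, or Little Grizzly Creek, and 10 to 15 of them were pooled per exposure. Controls were unexposed animals in COMBO, a defined culture medium, and no other control water was used. Each site had 3 exposures, and every exposure was hybridised against control RNA on 2 arrays with the dyes Cy3 and Cy5 exchanged. The labels call the 3 exposures biological replicates and do not say whether exposures shared control RNA or came from separate cultures, so the p-values below measure the spread between exposures only.

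Copper is an essential trace metal for crustaceans, and in excess it is toxic to Daphnia. Water from a stream also differs from a culture medium in ions, organic matter and particles. An array of this kind reports, for each feature, the ratio of RNA from exposed animals to RNA from control animals. In RNA from pooled whole animals, less RNA per cell and fewer cells of a type cannot be told apart. The deposited identifiers, such as P9DC5, are not paired with genes in the sources used here. None of the 7680 matched the RefSeq gene table of 28335 genes, so neither gene names nor sequences can be given for the members.

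The members were chosen by their direction, and that direction is therefore no result. An exposure value is the mean log ratio of the 2 dye-swap arrays, and all 12 values had to be measured and below 0. Each site mean had to be -0.1 or lower. Features whose tailings and Little Grizzly Creek means were both -0.8 or lower were left out, as were features above 0 in all 6 upstream and portal exposures, a clause that removed 0. Only 3661 features had all 12 values, and 56 of these (1.53%) were below 0 throughout. Of the 56, 17 missed the site-mean threshold and 17 were left out for a strong fall at tailings and Little Grizzly Creek, which leaves 22, or 0.601% of the 3661. By comparison 18 features (0.492%) were above 0 in all 12 exposures. A further 42 features with 1 to 3 blank exposure values were below 0 in all the values they had.

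The log ratios are read as log2, although their base is not stated, and as likely exposed over control, because the labels list exposed animals as the second channel on every array, whichever dye they carried. Both arrays of an exposure correlated positively, between 0.616 and 0.91 across features, so the dye swaps had already been turned. If the whole table runs the other way, every fall below is a rise. Arrays of the same orientation from different exposures form 132 pairs. Of these, 5 had a correlation under -0.3 (minimum -0.38), and the second upstream exposure was part of 2. The direction of single exposures is therefore not settled. With that exposure turned, 10 features met the rule. None of the 22 could be among them, since the rule required that value to be below 0 before it was turned. The SD across features ran from 0.28 in upstream exposure 2 to 0.79 in portal exposure 3, so an equal log ratio stands out more in some exposures than in others.

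The sizes are given as a description, since the rule chose members on these same values. The mean of the 4 site means ran from -0.79 to -0.21 over the 22 members and had a median of -0.52. Over the 3661 features with all values the median was -0.00047, a gap that the rule itself sets. If the base is 2, that is a level 13.8% to 42.3% below control, with a median of 30.1%. The median over members was -0.38 in upstream, -0.48 in portal, -0.54 for tailings and -0.71 for Little Grizzly Creek water. Little Grizzly Creek water gave the lowest site mean in 15 of the 22 members, and upstream water the highest in 11. Of those 15 members 9 belong to a set with a shared profile, described next, so the 15 are not separate observations. The same holds for the 11, since outside that set upstream water was highest in 2 members and portal water in 7. For the 13 members outside the set the medians were -0.28 in upstream, -0.30 in portal, -0.37 for tailings and -0.36 for Little Grizzly Creek water.

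A single profile made up 9 of the 22 members. Linking members that correlated at 0.9 or more over the 12 exposures joined P9DC5, P9DC4, P1DA4, P1CG12, P1DC7, P10CC8, P4BA10, P10DC8 and P1AA4. Their 36 pairwise correlations ran from 0.798 to 0.989, with a median of 0.937. Their levels were close for 7 of the 9, which lay within 0.15 of the mean of the 9 (root mean square over the exposures), while P1AA4 and P10DC8 lay 0.205 and 0.197 from it. In upstream exposures 1, 2 and 3 their medians were -0.53, -0.29 and -0.76, and in portal exposures -1.11, -0.62 and -0.68. In tailings exposures the medians were -0.70, -1.33 and -0.26, and in Little Grizzly Creek exposures -0.60, -1.13 and -1.06. The profile thus had its lowest median in the second tailings exposure, where the 9 lay between -1.44 and -0.98. In the third exposure to the same water they lay between -0.35 and -0.12, so exposures of 1 site differed more for these features than the site means did.

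**Figure D1:**
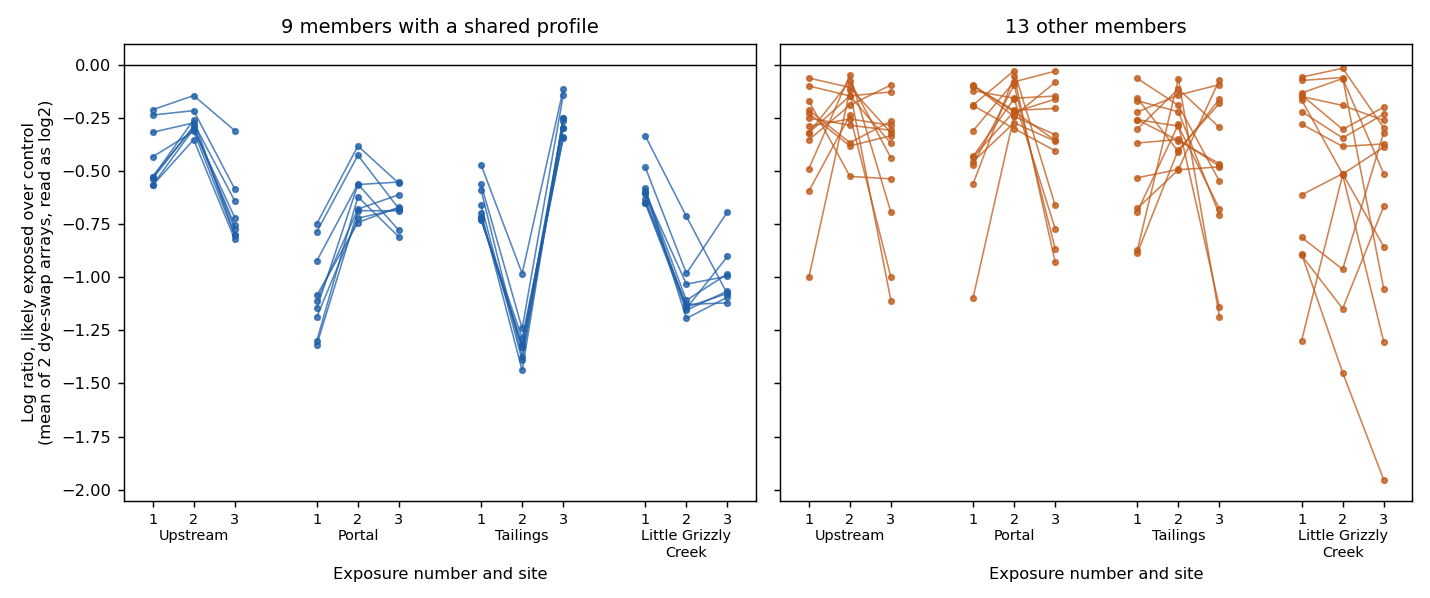
Log ratio (vertical axis, read as log2, mean of 2 dye-swap arrays) of each member in the 3 exposures of each site (horizontal axis); points are exposures and lines join the values of 1 feature within a site. The 9 members on the left move together, with their lowest median, -1.33, in tailings exposure 2, while the 13 on the right show no common shape and reach -1.95 in Little Grizzly Creek exposure 3.

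P9DC5 had the lowest mean of the 4 sites, -0.79. Its values were -0.54, -0.29 and -0.77 in upstream water, -1.32, -0.69 and -0.69 in portal water, -0.73, -1.31 and -0.30 in tailings water, and -0.65, -1.13 and -1.12 in Little Grizzly Creek water. The 4 sites overlap, and the spread within tailings water, 0.51 (SD, n = 3), exceeds the widest gap between site means, 0.43. In upstream, portal and Little Grizzly Creek water the SD was smaller than that gap, at 0.24, 0.36 and 0.27. P1AA4 and P10DC8 had the smallest falls among the 9, with means of -0.54 and -0.57. P10DC8 was lowest in Little Grizzly Creek exposure 3, at -1.08, and not in tailings exposure 2, at -0.98.

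Correlation alone does not set these 9 apart, since 85.2% of the 3661 features had at least 1 partner at 0.9 or more over the 12 exposures. A share of 47.1% had 9 or more such partners. How often other features are also alike in level was not counted. With the mean of the 9, 16 features correlated at 0.9 or more, and 13 of the 16 lay within 0.15 of it. The 16 were the 9 members and 7 of the 17 features left out for a strong fall. The threshold at -0.8 thus runs through 1 set of closely similar features. P1CG12, just inside, averaged -0.796 at tailings and -0.885 at Little Grizzly Creek. P6DC6, just outside, averaged -0.812 and -0.887, with a correlation of 0.958 between P6DC6 and the mean of the 9. Whether these features carry the same transcript was not tested, and they should be read as 1 pattern rather than 9 observations.

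**Figure D2:**
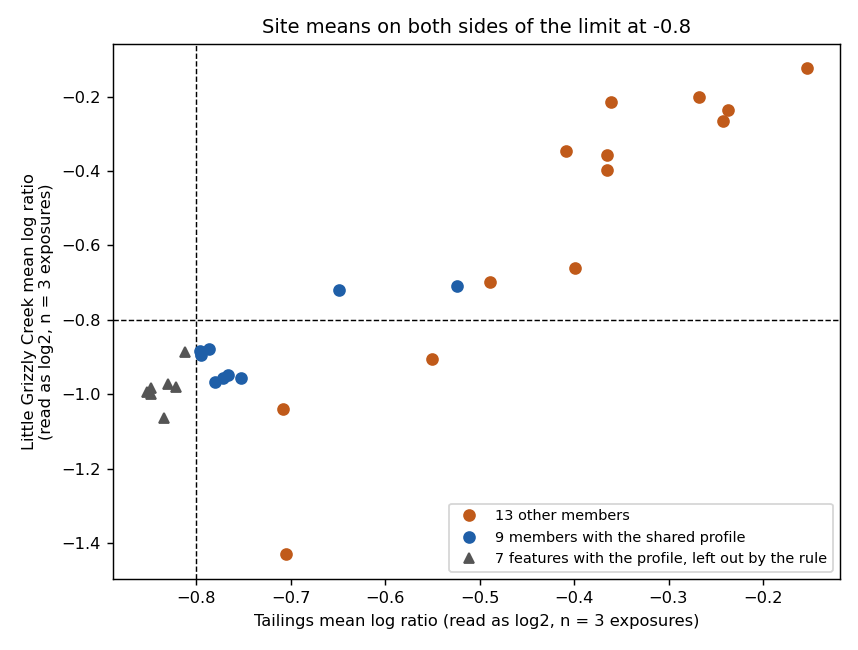
Tailings mean against Little Grizzly Creek mean (both log ratios read as log2, n = 3 exposures) for the 22 members and the 7 left-out features that share the profile of the 9; dashed lines mark -0.8, and a feature below and left of both was left out. The 7 triangles, between -0.85 and -0.81 at tailings, sit beside 7 of the 9 blue members.

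The profile could be looked for in the dye swap, which the rule did not use. The dye difference of an exposure, here its array with exposed animals in Cy5 minus the one with them in Cy3, divided by 2, carries the dye effect and cancels in the mean. Over the 12 exposures these dye differences correlated between the 9 members with a median of 0.7, from 0.167 to 0.939. Between the other 13 members the median was 0.125, from -0.706 to 0.832, and over all pairs of the 3661 features it was 0.0481. The 9 thus resembled each other in this second measure too. It comes from the same arrays as the mean and need not be independent of it. The pairs share features and exposures, so these values are a description without a test.

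The other 13 members had no shape in common. Their 78 pairwise correlations had a median of 0.0947 and ran from -0.66 to 0.931. The highest belongs to P5DB3 and P2BG1, the only other pair that 0.9 would join. P5DB3 had values of -0.25, -0.28 and -0.31 in upstream water, -0.10, -0.21 and -0.21 in portal water, -0.26, -0.29 and -0.68 in tailings water, and -0.28, -0.38 and -0.37 in Little Grizzly Creek water. P2BG1 ran beside it, and tailings exposure 3 was the lowest value of both, at -0.68 and -0.71. The mean of the 4 sites was -0.30 for P5DB3 and -0.29 for P2BG1.

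**Figure D3:**
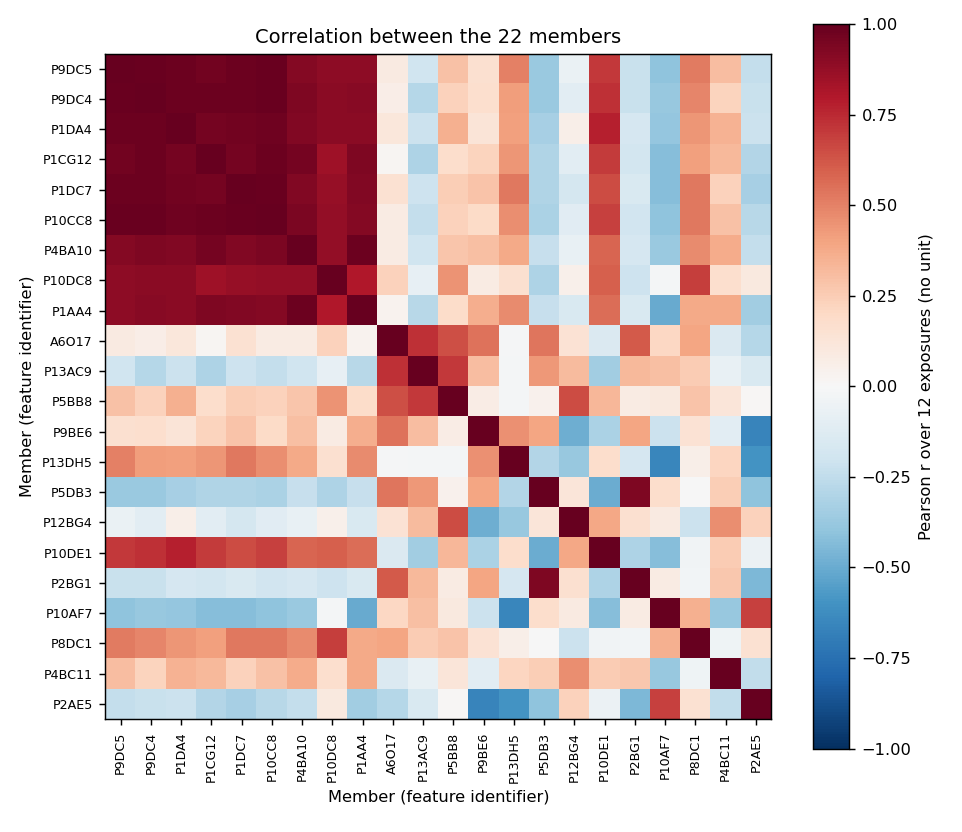
Pearson correlation over the 12 exposures (colour scale) between all 22 members, the 9 with the shared profile first. The block of 9 has correlations of 0.798 or more, while the median among the other 13 is 0.0947.

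A6O17 and P13AC9 were the deepest of the 13. A6O17 averaged -0.79 over the sites, with -1.001, -0.12 and -1.11 in upstream, -0.19, -0.028 and -0.66 in portal, -0.69, -0.28 and -1.14 with tailings water, and -0.89, -1.45 and -1.95 with water of Little Grizzly Creek. It was close to 0 in the second portal exposure and gave the lowest value of any member in Little Grizzly Creek exposure 3. P13AC9 averaged -0.71 and was close to 0 in the second portal and tailings exposures, at -0.095 and -0.066. P5BB8 averaged -0.50 and was weakest in the second upstream and portal exposures, at -0.048 and -0.055. P13DH5 averaged -0.47 and was deepest in the first portal exposure, at -1.10.

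P9BE6, described with the comparison of sites, averaged -0.48. The remaining 8 members outside the profile averaged between -0.30 and -0.21, P5DB3 and P2BG1 among them. P10DE1 had the least spread relative to its mean of all 22, at -0.29 with an SD of 0.10 over the 12 exposures, all between -0.46 and -0.15. It was below 0 on all 24 arrays. P12BG4 averaged -0.30 and was lowest in portal exposure 3, at -0.77. P10AF7 averaged -0.28, and its deepest values were in upstream exposures 2 and 3, at -0.53 and -0.54. P8DC1 averaged -0.27, and -0.18 without Little Grizzly Creek exposure 3, its lowest value at -1.05, against -0.074 and -0.060 in exposures 1 and 2 of that water. P4BC11 averaged -0.26 and stayed between -0.47 and -0.10. P2AE5 averaged -0.21 and lay just inside the site-mean threshold, with -0.12 in Little Grizzly Creek water. A3P1, just outside it, had -0.094 there.

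The rule averaged arrays, so single arrays could still lie above 0. All 24 arrays were below 0 in 10 members, 5 members had 1 array above, 4 members had 2, and 3 members had 3 to 5. The median dye-swap error of a member, the absolute difference of its 2 arrays divided by 2, was 0.12, against 0.093 over the 3661 features. The spread among exposures of 1 site was larger, with a median pooled SD of 0.32 over members. It was 0.36 for the 9 with the shared profile and 0.18 for the other 13, against 0.18 over the 3661 features.

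Against control, limma called 10 of 22 members below 0 in tailings water (2.37% of all 6504 tested features were called lower) and 12 in Little Grizzly Creek water (1.89%), at an adjusted p under 0.05. In upstream and portal water it called 0 members (0.0769% and 0% of all features). Lower than control at an unadjusted limma p under 0.05 were 17 and 15 members, and 8.83% and 10.8% of all tested features. The rule chose members on these same contrasts, so nothing is read from these counts. Of the calls, 7 for tailings and 7 for Little Grizzly Creek water came from the 9 members with the shared profile. With the exposure number as a replicate block the counts were 5 in upstream, 14 in portal, 15 for tailings and 16 for Little Grizzly Creek water. Over all tested features the blocked shares were 4.38%, 9.84%, 4.86% and 7.09%, each above the share without the block. In that fit, differences between exposure numbers no longer count as error against control.

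How far the fall differed between waters was tested by setting site against site. The rule restricted these differences, because it required every value to be below 0 and left out features that were low at both tailings and Little Grizzly Creek. The members' counts are therefore a description and are not read against the shares of all features. Limma called 1 member in any of the 6 pairs of sites, against 7.1% of all tested features, and the same 1 among the 4 sites by its F test, against 4.52%. It called 0 members between portal and upstream, and between Little Grizzly Creek and tailings water (0% of all features in both), and 0 for tailings minus upstream (5.9%) and tailings minus portal (4%). For Little Grizzly Creek minus upstream (2.03%) and minus portal water (0.969%) it called 1 member, P9BE6. It stood at -0.23, -0.38 and -0.33 in upstream water, -0.098, -0.22 and -0.16 in portal water, -0.68, -0.49 and -0.48 in tailings water, and -0.90, -1.15 and -0.67 in Little Grizzly Creek water. All 3 Little Grizzly Creek values lay below all 3 upstream and all 3 portal values, and only the first tailings value, -0.68, overlapped them.

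P9BE6 was lower in Little Grizzly Creek than in portal water by -0.74 (SE 0.12, adjusted p = 0.0259 by limma), and lower than in upstream water by -0.59 (SE 0.12, adjusted p = 0.0404 by limma). The moderated F test over the 4 sites gave an adjusted p of 0.0279. Between Little Grizzly Creek and tailings water the difference was -0.35 (SE 0.12) and did not pass (adjusted p = 1.00 by limma). These calls rest on few exposures. With 1 exposure of the 12 left out, the difference from upstream water passed in 1 of 12 fits, that without Little Grizzly Creek exposure 3, with adjusted p from 0.0208 to 0.141. The difference from portal water passed in 8 of 12 fits, and not without portal exposure 1 (0.0530), portal exposure 3 (0.0745), Little Grizzly Creek exposure 1 (0.123) or Little Grizzly Creek exposure 2 (0.0580). After quantile normalisation the adjusted p of P9BE6 was 0.186 against portal and 0.372 against upstream water.

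For the other 21 members no site pair passed. Counting all 22, 1 to 2 members per pair had an unadjusted p under 0.05, with 3.06% to 21.4% of all tested features at that level. A p above the threshold does not show that the waters act alike on these features. The median member was lower in Little Grizzly Creek than in upstream water by -0.36, with 18 of 22 members lower, but for the 13 outside the profile that median was -0.091, with 9 of 13 lower. A6O17 had the widest gap between sites, -1.14 between Little Grizzly Creek and portal water. With the exposure number as a replicate block, A6O17 and P13AC9 also passed in that pair (adjusted p = 0.0381 and 0.0454 by limma), so that 3 members were called in some pair, in a fit that called 14.4% of all tested features. For this pair of sites same-numbered exposures deviated together across features, with correlations of 0.154 to 0.587. The fit without the block does not take this into account.

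Whether a fall in some exposures carried over to others was examined by applying the rule to 2 of the 3 exposure numbers and reading the 4 exposures of the third. With number 1 held out, the rule chose 49 features. In the 4 exposures not used, 77.6% of their values were below 0, against 47.7% over all 3661 features, and 38.8% of them were below 0 in all 4, against 14.4%. With number 2 held out, 108 features were chosen, 57.4% of their held-out values were below 0, against 54.4%, and 25.9% were below 0 in all 4, against 15.2%. With number 3 held out these values were 54.4% for 74 features, against 49.7%, and 18.9% against 16.7%. The carry-over was therefore above the level of all features when number 1 was held out, and closer to it for the other numbers.

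Among the chosen features 4, 16 and 2, for numbers 1, 2 and 3, correlated at 0.9 or more with the mean of the 9 and are not separate observations. By water, with number 1 held out, 93.9% of the 49 were below 0 in upstream and 93.9% in portal water, against 49.2% and 47.8% of all features. The share was 73.5% for tailings, against 48.1%, and 49.0% for Little Grizzly Creek water, against 45.6%. With number 2 held out it was 88.9% in portal water, against 54.4%, but 42.6% in upstream water, against 56.8%. With number 3 held out it was 75.7% in tailings water, against 43.8%, but 32.4% in portal water, against 54.3%. In none of the 4 waters was the share above that of all features for all 3 numbers. These shares carry no test, since features move together and exposures may share control RNA.

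**Figure D4:**
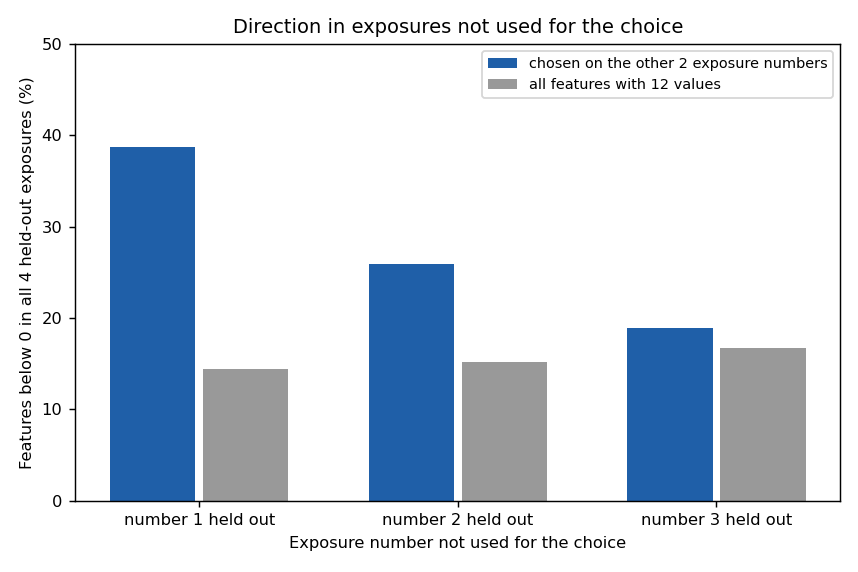
Share of features below 0 in all 4 exposures of the number held out (vertical axis, percent), for features chosen on the other exposure numbers (blue) and for all 3661 features (grey). The blue bar stands above the grey bar most for number 1, 38.8% against 14.4%, and least for number 3, 18.9% against 16.7%.

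The dye term gave a test on a measure that the rule did not use directly. It comes from the same 2 arrays as the mean, and their SDs differed in some exposures (0.56 and 0.85 in portal exposure 1). The 2 measures need not be independent. The dye difference was tested against 0 over the 12 exposures. Limma called 9 of 22 members (adjusted p under 0.05), against 13% of all 6504 tested features. Members had to have all 12 values. Fitted to such features only, limma called 10 members, against 23.5% of 3661 features. This test takes the 12 exposures as independent, but dye differences of same-numbered exposures correlated at 0.206 to 0.647, and with the exposure number as a random effect limma called 0 members. The calls and p-values of single features below hold only if the exposures are independent. In 8 of the 9 the ratio was higher, and so the fall smaller, with exposed animals in Cy5, a direction called in 5.46% of all features, and 1 went the other way (7.58%). The shared profile held 6 of the 9 calls, all in the same direction. Outside it 3 of 13 members were called, P2BG1, P8DC1 and P13DH5.

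P1CG12 had the largest positive dye term, 0.15 (SE 0.031, adjusted p = 0.0115 by limma), above 0 in 11 of 12 exposures. Its mean log ratio was -0.61 with exposed animals in Cy5 and -0.90 in Cy3, so both orientations lay below control. P2BG1 followed with 0.14 (SE 0.030, adjusted p = 0.0113 by limma), above 0 in 12 of 12 exposures, with means of -0.14 and -0.43. P13DH5 was the 1 negative call, -0.24 (SE 0.057, adjusted p = 0.0188 by limma), with means of -0.71 with exposed animals in Cy5 and -0.23 in Cy3, and 10 of 12 exposures negative. P8DC1 had means of -0.14 with exposed animals in Cy5 and -0.39 in Cy3. For P2BG1, P8DC1 and P13DH5 the 2 orientations thus differed by about as much as the mean fall itself.

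The dye term was not equal over exposure numbers. The median over members was 0.11 in the exposures numbered 1, 0.014 in those numbered 2 and 0.085 in those numbered 3. Over all features it was 0.022, -0.016 and 0.039. All 9 members of the shared profile had a positive mean dye difference in numbers 1 and 3, and 6 of 9 did in number 2. The random-effect fit called 9 of 6504 features in all. With the number as a replicate block limma called 14 members (34.6% of all), and in numbers 1 and 3 alone 15 members (55.1% of 3936 features), so the number of dye calls depends on how the exposure number is treated. The part of the dye in the falls themselves was not tested beyond the averaging of both orientations.

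**Figure D5:**
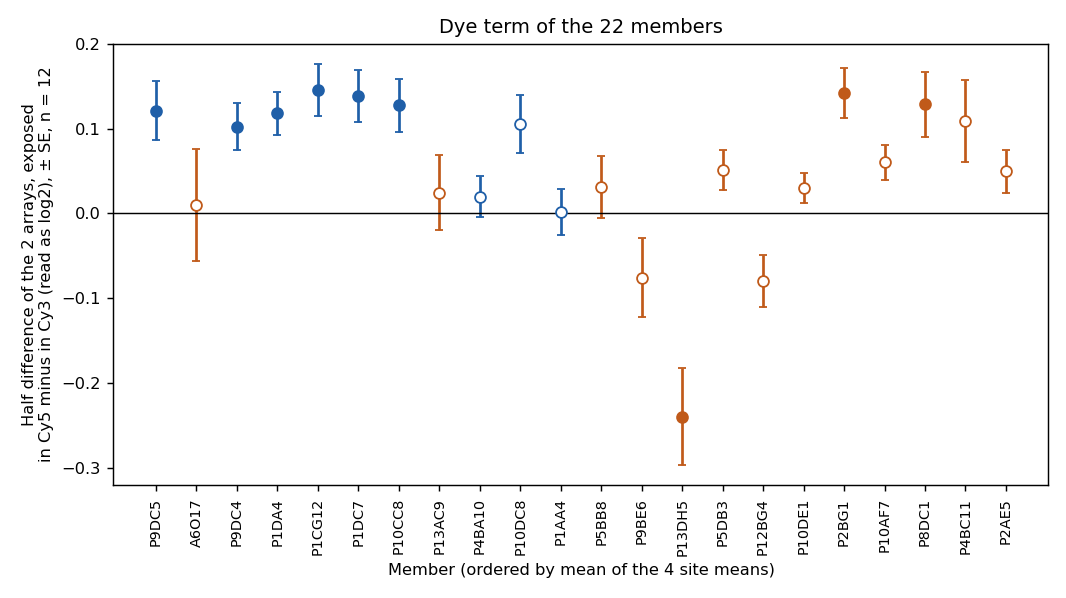
Dye term of each member (vertical axis, mean dye difference read as log2, ± SE, n = 12 exposures), ordered by the mean of the 4 site means; blue marks the 9 with the shared profile, and filled points passed limma's adjusted threshold of 0.05. Of the 9 filled points 8 are above 0, and P13DH5 is at -0.24.

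The identifiers were the last property examined. They fall into a series that starts with P, with 4992 features, and a series that starts with A, with 2688, and the files do not say what separates the series. Of the 22 members 21 were of the P series (95.5%), against 65% of all features and 79.9% of the 3661 with all 12 values. Outside the shared profile it was 12 of 13 (92.3%). The number after the letter was shared by up to 4 members, 4 with P1 and 4 with P10, and the members spread over 10 of the 20 letter and number combinations. P9DC4 and P9DC5, which have adjacent identifiers, were both in the shared profile.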

How the data were processed

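The members, lists and comparisons were chosen with earlier results of these data known. The authors deposited 1 log ratio per feature and array for 24 arrays, read here as log2 ratios. The sources used here do not state how arrays were scanned, corrected and normalised, or the base of the logarithm. Per array, the median log ratio was near 0 (-0.0265 to 0.0177). Blank cells, 132 to 2574 per array, were treated as left out. Channel signals were not used here. Precision is limited by how many arrays there are.

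The 2 dye-swap arrays of an exposure were averaged, both being needed. Features with at least 2 exposure values at every site (6504) were fitted with limma 3.58.1 in R 4.3.3 (lmFit, eBayes), with 1 mean per site over all 12 exposures and Benjamini-Hochberg adjustment over all tested features, at a threshold of 0.05. The dye term was fitted in the same way to the dye differences, with 1 mean. The fits were tested on simulated data with independent noise in each exposure. That simulation cannot show how the fits behave where same-numbered exposures correlate, as they do in these data. The test against control leaves out the spread of control animals where control RNA was shared.

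To see whether exposure numbers pair the sites, each exposure's deviation from its site mean was compared between sites. Same-numbered exposures correlated above 0.1 for all 3 numbers in upstream with portal (0.513 to 0.824), portal with Little Grizzly Creek (0.154 to 0.587) and tailings with Little Grizzly Creek (0.263 to 0.647). For these pairs the numbers were taken to pair exposures. The main fit nevertheless holds no term for the number. Site-pair p-values above, those of P9BE6 included, ignore this pairing except where the replicate block is named. For upstream with tailings, upstream with Little Grizzly Creek and portal with tailings the lowest was -0.252, -0.13 and -0.132.

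By the rule for names, features are named that have the lowest means, lie next to a threshold, passed in a site pair, have the largest dye terms or the least relative spread. The other members are named because they are members, after their values were seen. Gene lists could not be used, since no feature has a gene name here. Alternatives were quantile normalisation, centring, scaling, a turned exposure, the exposure number as a block or random effect, a dye term, other thresholds and each exposure left out.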

Additional observations from a re-analysis of the deposited data

Results flagged for a closer look

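P9BE6 was the 1 member whose effect differed between sites by a direct test. It was lower in Little Grizzly Creek than in upstream water by -0.589 and lower in Little Grizzly Creek than in portal water by -0.743, with adjusted p-values of 0.0404 and 0.0259 by limma. The first of these calls stood in 1 of the 12 fits that left out 1 exposure, and the second in 8 of 12. The F test over the 4 sites (adjusted p = 0.0279 by limma) passed in 5 of 12, with 0.0187 to 0.0774. Values by site held 3 exposures, too few for a search for single outlying exposures.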

How the results depend on the processing

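The mean of the 4 sites moved by less than its own spread in all 330 values computed for the 22 members under rescaling or with 1 exposure left out. With 1 exposure left out it could not have moved by that much, since only 1 of the 4 site means changes. Those values therefore show no stability. The median over the 22 members lay between -0.56 and -0.50. Membership did change. The rule gave 10 features with the second upstream exposure turned, which removes all 22 by construction, 34 where either array was enough, 10 where all 24 arrays had to be below 0, and 39 with strong falls kept. Without 1 exposure it gave 20 to 39, with 36 without portal exposure 3 or Little Grizzly Creek exposure 1, and 39 without Little Grizzly Creek exposure 2. Scaling arrays to 1 SD gave 15, of which 14 were among the 22.

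With the exposure number as a replicate block, limma called members below control 5 times in upstream and 14 times in portal water, called 3 in some site pair and 14 for dye, and the other blocked counts stayed within 1.5 times. As a random effect the number gave 6 in tailings water (2.46% of all tested features), 2 in site pairs (14.8%) and 0 for dye (0.138%). Quantile normalisation gave 3 in upstream (2.12% of all) and 6 in Little Grizzly Creek water (1.18%). It gave 0 in site pairs (7.56%) and in the F test (3.89%). With the second upstream exposure turned there were 2 in tailings (1.69% of all) and 3 in Little Grizzly Creek water (1.63%). There were then 0 in site pairs (2.97%), F test (1.72%) and dye test (0.0308%). The 24-array fit with a dye term gave 2 in upstream (0.938% of all) and 12 in portal water (1.54%). That fit gave 0 in site pairs (7.76%) and F test (5.75%). Only features with all 12 values gave 8 in portal water (3.00% of such features). Counts without 1 exposure were 0 in upstream and 0 to 9 in portal water, with 9 without portal exposure 2 (6.08% of all). In tailings water they were 3 to 9, with 6 without upstream exposure 1 and 3 without tailings exposure 1 or 2. In Little Grizzly Creek water they were 1 to 14, with 3, 2 and 1 without its exposures 1, 2 and 3. They were 0 to 1 in site pairs and F test, and 6 to 12 for dye. Over all tested features these fits called 1.14% to 3.11% in tailings and 0.666% to 2.31% in Little Grizzly Creek water. They called 3.70% to 10.3% in site pairs, 1.06% to 6.36% in the F test and 5.85% to 31.4% for dye.

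Alternatives chosen after seeing the data were the 13 members outside the shared profile, with 3 calls in tailings, 5 in Little Grizzly Creek water and 3 for dye, and the exposures numbered 1 and 3 alone, with 2 in tailings, 2 in Little Grizzly Creek water, 0 in site pairs and F test, and 15 for dye. Without the shared profile, 50% of held-out values of number 2 were below 0, a drop set by construction, since each feature left out was below 0 throughout. Linking members at 0.8 or 0.95 gave a largest set of 9 or 8. The cause of these changes was not tested. Brightness is unknown, so no statement on weak features can be made.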

Other observations

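The mirror image of the rule, with all signs turned, chose 12 features that rose in every exposure, against the 22 that fell. Their mean of the 4 sites ran from 0.20 to 0.77, with a median of 0.50, close in size to the median of -0.52 of the falling members. Before the clause on strong changes 13 features rose and 39 fell, so that clause cut the falling set far more. The counts and medians after it are therefore not a like comparison. Of the 12, 11 had identifiers of the P series.

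The 10 features left out for a strong fall that did not share the profile of the 9 averaged between -1.32 and -0.64 over the sites.

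Across all features, the dye difference of an exposure correlated with the mean of those of the other 11 exposures at 0.285 to 0.540 in the exposures numbered 1 and at 0.338 to 0.510 in those numbered 3. In the exposures numbered 2 the correlations were 0.156 for upstream, -0.070 for portal, -0.059 for tailings and 0.032 for Little Grizzly Creek water. Within number 2, the 4 exposures correlated with each other at 0.251 to 0.504. The exposures numbered 2 thus had a dye pattern of their own in these data, and its part in the members' values was not tested.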
